A study of Mus musculus with 6 samples.

Results

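The genes described here are 37 genes of antioxidant defence and glutathione metabolism, chosen by name from the 54532 genes of the deposited table. The names were listed with earlier results of these data known, and the rule itself uses no measured value. They comprise regulators of the response, enzymes that supply glutathione, thioredoxins and peroxiredoxins, superoxide dismutases and catalase, glutathione peroxidases, glutathione transferases, and enzymes of quinone, heme, NADPH and iron metabolism. RNA was sequenced from cardiosphere-derived cells (iCDCs) of C57BL/6 mice after immortalization, a line grown from the epicardium of the heart ventricle and called iECDCs in the study's methods. The 3 control libraries came from iCDCs at passage 30. The 3 induced libraries came from iCDCs at the same passage that had received 10 µM 5-azacytidine, a cytidine analog that inhibits DNA methylation, for 3 days and had then been kept in IMDM with 2% serum for 4 weeks, a protocol used to induce cardiac differentiation.

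All 6 libraries share the immortalization: a human telomerase gene (hTERT) under the CMV promoter was brought in by lentivirus, and infected cells were selected with puromycin. The labels give no medium or culture time for the control cells, so the drug, the lower serum and the time in culture cannot be told apart. The explant medium named in the study's methods also contains β-mercaptoethanol, a thiol reductant, and the labels name none in the induction medium, so this difference too cannot be told apart from the drug. The study's methods name another medium and a shorter culture for cardiac induction than the labels do. All libraries come from this line, and the replicates are 3 samples per group that the labels call separate without naming separate cultures. The p-values then measure the spread between these samples, which may be technical.

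Cells remove superoxide in steps: superoxide dismutases turn it into hydrogen peroxide, and catalase, peroxiredoxins and glutathione peroxidases reduce the peroxide. Most peroxiredoxins are recharged by thioredoxin, glutathione peroxidases such as Gpx1 and Gpx4 use glutathione, and both cycles draw on NADPH. Much of this set is transcribed under the factor NRF2 (Nfe2l2), which its partner KEAP1 holds in the cytoplasm and hands to degradation until oxidants or electrophiles modify KEAP1, and NRF2 with a small MAF protein then binds antioxidant response elements in its target genes. In the heart these enzymes are known for limiting injury during ischemia and reperfusion.

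The defining markers were checked first. Thy1, Eng and Ly6a, surface markers of cardiosphere-derived and mesenchymal cells, were read in all libraries, at 111 to 171 CPM for Thy1, 360 to 406 for Eng and 17.7 to 32.6 for Ly6a, where CPM is the read count scaled to the size of the library and corrected between libraries by TMM. The 5 epicardial markers listed summed to 373 to 387 CPM in control and 1234 to 1380 CPM in induced libraries, and 4 rose while Tbx18 fell from 63.7 ± 4.9 to 50.7 ± 4.6 CPM (SD, n = 3). Of 5 cardiomyocyte markers only Tnnt2 (13.1 ± 1.62 to 58.2 ± 1.92 CPM) was read well enough to test, and Myh6, Actc1, Ryr2 and Myl2 had 0 to 29 reads per group. The 5 summed to 11.6 to 14.7 CPM in control and 56.8 to 60.4 CPM in induced libraries. Of the 6 leukocyte markers, which summed to 4.76 to 6.41 CPM in control and 40.7 to 47.7 CPM in induced libraries, Ptprc, Itgam, Adgre1 and Tyrobp had 0 reads in all libraries, whereas Cd68 rose from 1.95 ± 0.217 to 29.2 ± 2.77 CPM and Lyz2 from 3.76 ± 0.637 to 14.6 ± 1.25 CPM. None of 4 endothelial markers (summed level at most 0.943 CPM) and none of 6 erythroid markers (at most 0.255 CPM) was read well enough to test, and of 3 hepatocyte markers only Ttr was (1.6 ± 0.483 to 16.1 ± 2.09 CPM). The part of these markers in the results below was not tested.

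Total counts were 19041133 to 19823369 reads per library. A count of 0 allows up to 0.151 to 0.158 CPM, and limits of this kind cover counting error only, since reads are not independent molecules. Induced library 2 stood apart. Relative to its group it held more reads of long genes, with a deviation of 0.0544 on the log2 scale per doubling of gene length, against -0.0293 to 0.0117 in the other 5 libraries. The 37 genes are short (median exon length 2106 bases against 4637 for genes of at least 10 CPM), and 25 of them (67.6%) were lowest in induced library 2 within its group, against 38.6% of genes of at least 10 CPM. Its part in the calls and fold changes was measured by leaving it out. Of the 37 genes, 29 then passed the test in place of 30, with 23 higher and 6 lower. The median log2 fold change was 0.26 in place of 0.24. Shares, ratios, ranks and counts of overlap were not computed without it.

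The antioxidant response element links many of these genes, so its core was searched in promoters from RefSeq (build GRCm38.p6), each covering 250 bases before and 50 after a start site. Promoters were at hand for 31 of the 37 genes, in 40 entries. The core searched was TGACNNNGC, on both strands. It was found in 8 entries of 8 genes, which is 20% of the entries of these genes against 12.4% of all 32851 promoter entries. Counted by gene, 25.8% of these genes held it, against 17.1% of the 10323 tested genes with a promoter. Of genes with a promoter, 7 of 18 that rose after induction held the core, 0 of 6 that fell did, and 1 of 7 that did not pass the test did. The entries searched differed in number, with 4 for Gpx4 and 3 for Txnrd1, which rose, and 1 or 2 for each that fell. The same split over all tested genes was not computed, and a link of the core with direction was not tested. No promoter was at hand for Hmox1, Gclc, Sod3, Gsta4, Gsr and Prdx6. A match is a run of letters and not evidence of a bound factor. The core is only a part of the element by which the response is defined, and 1 of the 8 matches, in Txnrd1, is followed by A. No base was required before TGAC, and an A or G stands there only in Me1, Prdx1 and Txnrd1. The matches are shown with the core in capitals and 10 bases on either side. They are read 5′ to 3′ on the minus strand of the genome in each case:
Gclm, chr3:122245413-122245441: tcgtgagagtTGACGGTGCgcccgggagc
Me1, chr9:86695902-86695930: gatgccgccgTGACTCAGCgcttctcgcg
Mgst1, chr6:138140461-138140489: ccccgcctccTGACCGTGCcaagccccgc
Nfe2l2, chr2:75704885-75704913: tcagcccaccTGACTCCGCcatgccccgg
Prdx1, chr4:116685456-116685484: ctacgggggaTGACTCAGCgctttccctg
Sod1, chr16:90220696-90220724: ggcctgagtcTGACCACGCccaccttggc
Srxn1, chr2:152105542-152105570: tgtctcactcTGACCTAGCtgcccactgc
Txnrd1, chr10:82859104-82859132: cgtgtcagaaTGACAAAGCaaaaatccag
The cores of Me1 and Prdx1 are spelled alike, and the core of Srxn1 begins 28 bases after its start site while the other 7 begin before theirs.

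The comparison of induced with control cells asked how these genes stood after induction. All 37 were read well enough to test. In edgeR's quasi-likelihood test, with p-values adjusted over 14246 genes by the method of Benjamini and Hochberg, 30 of the 37 (81.1%) differed at an adjusted p of 0.05. Of these, 23 (62.2%) were higher and 7 (18.9%) were lower in induced cells. Across all genes tested 64.8% differed, 32.6% higher and 32.2% lower, so a difference as such was common in this comparison. Abundant genes are easier to call, and among the 9463 genes of at least 10 CPM, 71.9% differed, 36.6% higher and 35.3% lower. The 34 genes of this set at or above that level numbered 22 higher and 7 lower. The median log2 fold change was 0.24 for the 37 genes and -0.01 for all genes tested, while the median absolute change was smaller in the set, at 0.26 against 0.36. By 2-fold or more, 2 genes rose, Gpx3 and Sod3, and 1 fell, Gpx7, against 9.29% and 7.83% of all genes tested. In 29 of the 37 the 3 induced libraries did not overlap with the 3 control libraries, against 68.6% of all genes. In bulk RNA, fewer cells of a type and less RNA per cell cannot be told apart.

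**Figure D1:**
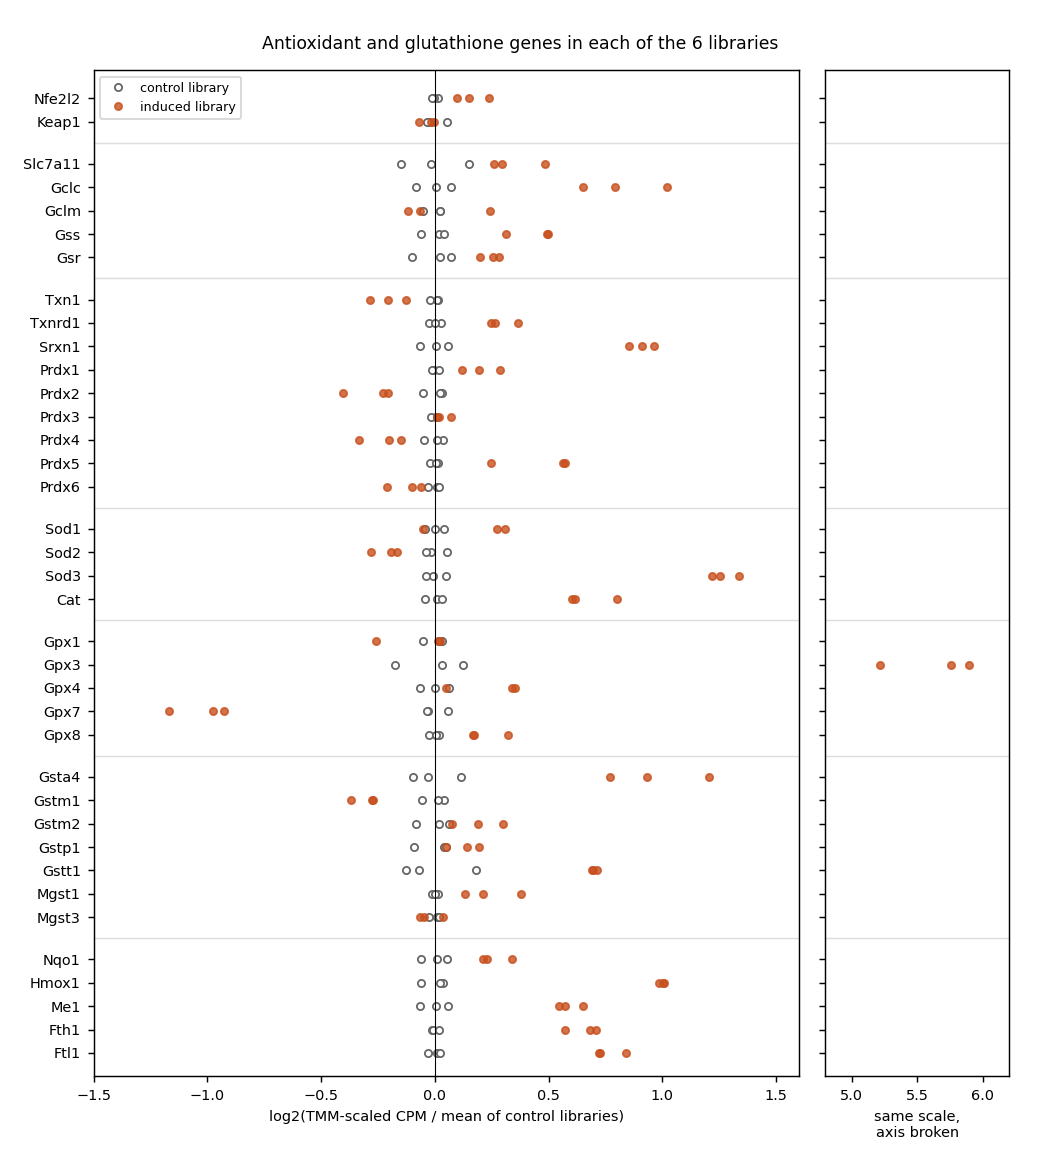
Level of each of the 37 genes in each library, as log2 of its TMM-scaled CPM over the mean of the control libraries, with genes grouped by role and the axis broken to hold Gpx3. Open points are the 3 control libraries and filled points the 3 induced libraries, which lie right of the controls for most genes and left of them for Txn1, Prdx2, Prdx4, Prdx6, Sod2, Gpx7 and Gstm1.

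The 2 regulators differed little. Nfe2l2 (ENSMUSG00000015839, chromosome 2, 75675513 to 75704641, minus strand) encodes NRF2 itself. Its level was 115, 113 and 112 CPM in control libraries 1, 2 and 3 and 121, 134 and 126 CPM in induced libraries 1, 2 and 3. All 3 induced libraries were above the controls, by 0.16 ± 0.05 on the log2 scale (SE, adjusted p = 0.0105 in edgeR). Keap1, its repressor, stood at 92, 97.2 and 91.4 CPM in control and 93.4, 89.2 and 92.4 CPM in induced libraries. The groups overlapped, and the log2 difference of -0.03 ± 0.05 did not pass the test (adjusted p = 0.638). Of its exon bases 10.9% lie over Gm16754 on the opposite strand. NRF2 is controlled mainly through its stability, which RNA counts do not measure.

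Glutathione is a tripeptide of glutamate, cysteine and glycine, and 5 of the genes supply it. Of these 3 rose and none fell. Gclc (ENSMUSG00000032350, chromosome 9, 77754535 to 77794485, plus strand) encodes the catalytic subunit of glutamate-cysteine ligase, the rate-limiting enzyme of the pathway. Its level was 32.3, 30.9 and 29 CPM in controls and 53.3, 62.3 and 48.2 CPM in induced libraries, a log2 fold change of 0.83 ± 0.08 (edgeR adjusted p = 4.13e-08). Gclm, which encodes the modifier subunit of the same ligase, stood at 49.3, 46.8 and 49.2 CPM in controls and 46.2, 57.3 and 44.6 CPM in induced libraries. Here induced library 2 lay above and the other 2 induced libraries below the controls, and the log2 difference was 0.03 ± 0.08 (adjusted p = 0.761). Without induced library 2 it was -0.09 (adjusted p = 0.181). Of the exon bases of Gclm 4.71% lie in other annotated genes, and 3.09% of the 100-base words of its transcripts occur elsewhere. Genes that share such words include Ppia (36436 control and 36840 induced reads) and Gm10123 (15007 and 8282), so a part of the Gclm count is uncertain. Per length, on the deposited FPKM scale, the ratio of Gclc to Gclm went from 1.06 ± 0.0669 in controls to 1.85 ± 0.0658 in induced libraries, and the 3 ratios of each group did not overlap. An exact permutation test of 3 against 3 libraries cannot go below p = 0.1, two-sided, and gave that value for this ratio and for each of the 8 shares and ratios computed (adjusted p = 0.1).

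Gss encodes glutathione synthetase, the enzyme of the following step. It read 17.4, 18.4 and 18.7 CPM in controls and 25.6, 22.6 and 25.7 CPM after induction, with a log2 fold change of 0.44 ± 0.08 (edgeR adjusted p = 0.000121). Genes on the opposite strand cover 15.4% of its exons, and their reads cannot be told apart from its own there. Of these genes Acss2 was assigned 880 control and 862 induced reads, Gssos1 0 and 0, and Gssos2 0 and 3. Gsr encodes glutathione reductase, which restores oxidized glutathione with NADPH. The 3 control libraries held it at 45.6, 44.1 and 40.5 CPM and the induced libraries at 49.8, 52.8 and 51.8 CPM, a smaller rise of 0.25 ± 0.06 on the log2 scale (adjusted p = 0.00125). Slc7a11 encodes the cystine importer of system xc-. It was close to the limit of what these libraries measure well, at 3.29, 3.01 and 3.71 CPM in controls and 4.09, 4 and 4.66 CPM in induced libraries. The groups did not overlap, yet the log2 difference of 0.35 ± 0.17 did not pass the test (adjusted p = 0.0842).

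The thioredoxin and peroxiredoxin system split evenly, with 4 of its 9 genes higher, 4 lower and 1 not past the test. Srxn1 (ENSMUSG00000032802, chromosome 2, 152105516 to 152111376, plus strand) encodes sulfiredoxin, which repairs overoxidized peroxiredoxins. Control libraries held 37.5, 40.8 and 39.3 CPM and induced libraries 76.5, 70.9 and 73.7 CPM, and its log2 fold change of 0.91 ± 0.06 was the largest of this system (edgeR adjusted p = 8.07e-11). Txnrd1 encodes the cytosolic thioredoxin reductase, a selenoprotein. It went from 157, 151 and 154 CPM to 185, 199 and 183 CPM, a log2 fold change of 0.29 ± 0.05 (adjusted p = 4.64e-05). The core searched above was found for both, in 1 of the 3 promoter entries of Txnrd1. It was also found for Gclm, which did not pass the test, and the part of the core in these changes was not tested.

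Txn1, the thioredoxin that this reductase recharges, was lower in induced cells by a log2 fold change of -0.21 ± 0.05 (edgeR adjusted p = 0.00157). That call was lost when gene length was corrected (adjusted p = 0.0812). The 6 peroxiredoxins went different ways. Prdx5, the peroxiredoxin found in mitochondria, peroxisomes and cytosol, read 421, 431 and 428 CPM in controls and 633, 507 and 630 CPM in induced libraries, with the lowest induced value in library 2 and a log2 fold change of 0.47 ± 0.07 (adjusted p = 4.71e-06). On the genome 19.1% of the exon bases of Prdx5 lie over Trmt112 on the opposite strand. Since the strand setting of the counting is not given, reads of Prdx5 cannot be told apart from those of Trmt112 there. Trmt112 was assigned 3694 control and 3733 induced reads, and Prdx5 25297 and 33570.

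Prdx1, a cytosolic peroxiredoxin, rose by a log2 fold change of 0.20 ± 0.05 (edgeR adjusted p = 0.0012). Prdx2, also cytosolic, fell by 0.28 on the log2 scale (SE 0.05, adjusted p = 0.00017), and Prdx4, the peroxiredoxin of the endoplasmic reticulum, fell by 0.23 (SE 0.06, adjusted p = 0.00166). Prdx2 shares 11.5% of its exon bases with Junb and Rnaseh2a on the opposite strand, so a part of its count is uncertain. Junb was assigned 12232 control and 7739 induced reads, and Rnaseh2a 2684 and 1874. For Prdx6, which uses glutathione in place of thioredoxin, the log2 difference of -0.12 ± 0.05 was at the threshold (adjusted p = 0.0492), and it was past it in only 2 of 16 alternative settings. Without induced library 2 it was -0.07 (adjusted p = 0.127). The mitochondrial Prdx3 stood at 74, 72.9 and 74.3 CPM in controls and 74.7, 74.3 and 77.6 CPM in induced libraries, a log2 difference of 0.03 ± 0.05 that did not pass the test (adjusted p = 0.57).

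Among superoxide dismutases and catalase 3 of 4 genes rose and 1 fell. Sod3 (ENSMUSG00000072941, chromosome 5, 52363791 to 52371418, plus strand) encodes the secreted enzyme, which binds heparan sulfate outside the cell. Control libraries stood at 202, 198 and 210 CPM and induced libraries at 515, 473 and 485 CPM. The rise was 2.41-fold, with a log2 fold change of 1.27 ± 0.05 (edgeR adjusted p = 7.18e-14). Sod2, the mitochondrial manganese enzyme, went the other way, from 127, 125 and 133 CPM to 114, 106 and 112 CPM, a log2 fold change of -0.21 ± 0.05 (adjusted p = 0.00156). Of the 100-base words of Sod2 transcripts, 12.8% also occur in other genes, in similar number in Rps6ka2 (1954 control and 885 induced reads) and AC166110.4 (1 read in each group), so a part of its count is uncertain.

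Sod1, the cytosolic copper and zinc enzyme, had overlapping groups, with 183 to 194 CPM in controls and 182 to 234 CPM in induced libraries, where library 2 was the lowest. Its log2 fold change of 0.19 ± 0.07 was past the threshold (edgeR adjusted p = 0.029) but was lost in 8 of 16 alternatives, among them leaving out control 1 (adjusted p = 0.0895), control 2 (0.0838), induced 1 (0.13) or induced 3 (0.14). Without induced library 2, the lowest of its group, the log2 fold change was 0.30 (adjusted p = 3.74e-07). Cat, the peroxisomal catalase, was 41.5, 43 and 43.6 CPM in controls and 64.9, 74.4 and 65.4 CPM after induction. All induced libraries were above all controls, with a log2 fold change of 0.68 ± 0.06 (adjusted p = 1.72e-08). Per length, Sod3 made up 47.4% ± 0.512 of the FPKM of the 3 dismutases in controls and 66.9% ± 2.15 in induced libraries (exact permutation p = 0.1, the smallest possible). This share depends on the deposited lengths of Sod1, Sod2 and Sod3 (3970, 10008 and 3738 bases). Without length, their control means were 189, 129 and 203 CPM and their induced means 215, 111 and 491 CPM.

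The glutathione peroxidases held both extremes of the set. Gpx3 (ENSMUSG00000018339, chromosome 11, 54902453 to 54910377, plus strand) encodes the secreted plasma enzyme, a selenoprotein. In control libraries 1, 2 and 3 it was at 0.912, 1.12 and 1.05 CPM, and in induced libraries 1, 2 and 3 at 55.8, 38.2 and 61.3 CPM. The lowest induced library was 2, and it was still far above each control. The fitted fold was 50, a log2 fold change of 5.64 ± 0.20 (edgeR adjusted p = 2.4e-14). On the FPKM scale Gpx3 moved from rank 36 to rank 21 of the 37 genes. Rank 21 is not exact, since Gpx3 was at 28.5 ± 6.68 FPKM in induced libraries and the next gene, Txnrd1, at 26.6 ± 1.19.

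5-azacytidine is built into new nucleic acid and traps DNA methyltransferases, and methylated cytosines in mammals lie mostly in CpG pairs. The promoter bases of Gpx3 are therefore shown, from the start of RefSeq's promoter entry to the base before the next annotated exon of Gpx3. They lie within the interval of the gene given above, which begins before them, and in no annotated exon of Gpx3 (GRCm38.p6, chr11:54902604-54902771, plus strand, 168 bases). The 5 CpG sites are in capitals:
Gpx3: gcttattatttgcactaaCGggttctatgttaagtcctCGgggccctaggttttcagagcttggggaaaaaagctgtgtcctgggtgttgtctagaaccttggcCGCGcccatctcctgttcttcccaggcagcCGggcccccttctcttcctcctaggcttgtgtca
The whole 300-base promoter entry of Gpx3 holds 13 CpG sites and that of Gpx7 holds 19, against a median of 17 for the entries of these genes and 20 for entries of tested genes. Over all promoter entries the median was 7. DNA methylation was not measured here.

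Gpx7 (ENSMUSG00000028597, chromosome 4, 108400390 to 108406961, minus strand) encodes a peroxidase of the endoplasmic reticulum. The controls held 101, 100 and 107 CPM and the induced libraries 52.1, 45.6 and 54 CPM. This was the largest fall of the set, to 0.493 times the control level (log2 fold change -1.02 ± 0.06, edgeR adjusted p = 7.79e-11). Gpx8, the other peroxidase of the endoplasmic reticulum, rose by a log2 fold change of 0.22 ± 0.05 (adjusted p = 0.00157). The members of this pair therefore moved apart, each past the test in its own direction.

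Gpx4 encodes the enzyme that reduces lipid peroxides in membranes and protects from ferroptosis. It was at 420, 439 and 459 CPM in controls and 561, 454 and 555 CPM in induced libraries. Induced library 2 lay within the control range and the other 2 above it, and the log2 fold change was 0.25 ± 0.06 (edgeR adjusted p = 0.00227). Of the 100-base words of Gpx4, 25.2% also occur in the pseudogene Gpx4-ps2, to which 3886 control and 4884 induced reads were assigned, so its level is uncertain. Gpx1, the abundant cytosolic peroxidase, stood at 394, 417 and 413 CPM in controls and 415, 341 and 412 CPM in induced libraries, a log2 difference of -0.07 ± 0.06 that did not pass the test (adjusted p = 0.346) and was 0.02, again not past it, without induced library 2.

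As shares of the FPKM of the 5 glutathione peroxidases, Gpx3 went from 0.0794% ± 0.0065 to 3.75% ± 0.533 and Gpx7 from 11.2% ± 0.291 to 5.22% ± 0.108. Gpx4 went from 35.7% ± 0.575 to 40.3% ± 0.74 and Gpx1 from 39.7% ± 0.551 to 35.9% ± 0.429. In each of these 4 shares the groups did not overlap (exact permutation p = 0.1, the smallest possible). Gpx1 and Gpx4 made up most of the peroxidase RNA in both groups.

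**Figure D2:**
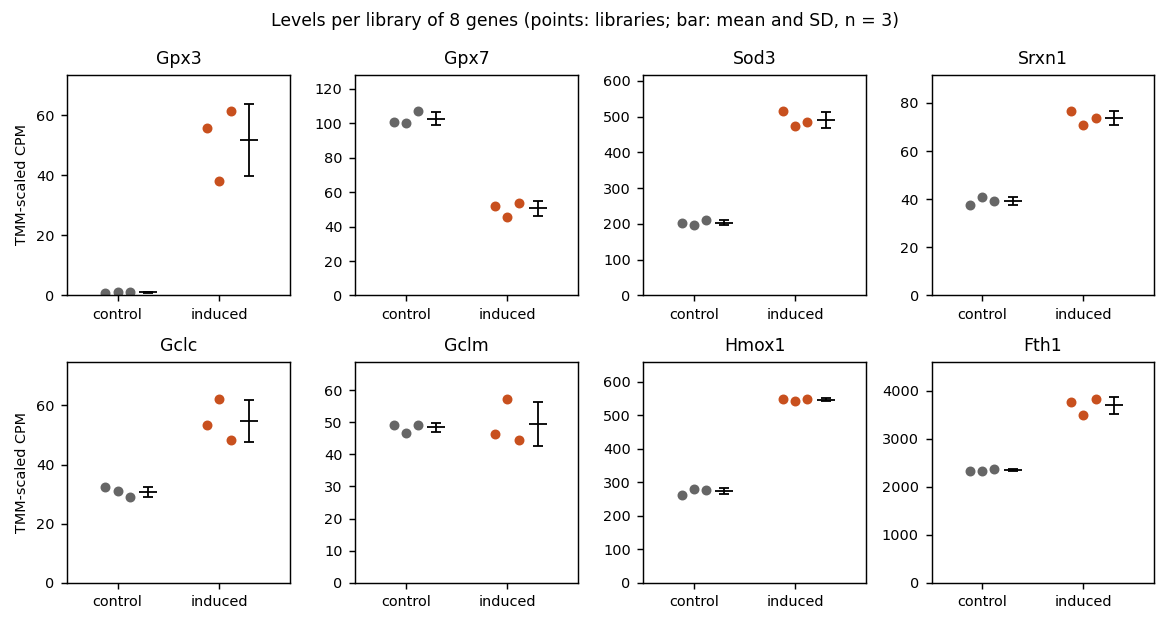
TMM-scaled CPM of 8 genes in each control and induced library, with linear axes from 0. Points are libraries and the bar beside them is the mean with its SD (n = 3). Gpx3 rises from between 0.912 and 1.12 CPM to between 38.2 and 61.3 CPM, Gpx7 falls, and the groups overlap in Gclm alone of these 8.

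The 7 glutathione transferases, which join glutathione to electrophiles, numbered 5 higher and 1 lower. Gsta4, known for clearing the lipid peroxidation product 4-hydroxynonenal, was low, at 2.69, 3.11 and 2.81 CPM in controls and 5.47, 4.89 and 6.6 CPM in induced libraries. The log2 fold change was 0.98 ± 0.17 (edgeR adjusted p = 7.33e-05). Gstt1, a theta class enzyme, went from 14.5, 17.3 and 14 CPM to 24.7, 24.8 and 25.1 CPM (log2 fold change 0.70 ± 0.09, adjusted p = 1.38e-06). Gstm1, a mu class enzyme, fell, from 207, 221 and 216 CPM to 177, 166 and 178 CPM (log2 fold change -0.30 ± 0.05, adjusted p = 2.76e-05).

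The neighbouring gene Gstm2 on chromosome 3 had a log2 fold change of 0.19 ± 0.06 in the other direction (edgeR adjusted p = 0.00813), which was lost without control 3 (adjusted p = 0.0582) or induced 3 (0.0521). Mgst1, a membrane-bound transferase, rose by a log2 fold change of 0.24 ± 0.06 (adjusted p = 0.000903). Gstp1, the pi class enzyme, had overlapping groups (157 to 173 CPM and 173 to 192 CPM) and a log2 fold change of 0.13 ± 0.05 at the threshold (adjusted p = 0.0449). It was not past the threshold in 9 of 16 alternatives, among them those without control 2 (0.0619), control 3 (0.236), induced 1 (0.152) or induced 3 (0.0798), and 25.1% of its 100-base words also occur in Gstp2. Mgst3 read 18.4, 18.5 and 18 CPM in controls and 17.5, 17.7 and 18.8 CPM in induced libraries, which did not differ by the test (log2 difference -0.02 ± 0.08, adjusted p = 0.8).

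Of the 5 quinone, heme, NADPH and iron genes 4 rose and none fell. Hmox1 (ENSMUSG00000005413, chromosome 8, 75093621 to 75100589, plus strand) encodes heme oxygenase 1, which frees iron from heme. Control libraries stood at 262, 280 and 278 CPM and induced libraries at 549, 542 and 548 CPM, a log2 fold change of 1.00 ± 0.04 (edgeR adjusted p = 7.12e-13). Among the 37 genes its FPKM rank went from 8 to 3. The groups were far apart, and each induced library lay close to the other two.

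Ferritin stores iron in a shell of heavy and light chains. Fth1 (ENSMUSG00000024661, chromosome 19, 9982703 to 9985092, plus strand), the heavy chain, was at 2328, 2334 and 2376 CPM in controls and 3760, 3484 and 3831 CPM in induced libraries (log2 fold change 0.65 ± 0.04, edgeR adjusted p = 1.11e-10). Ftl1, the light chain, was at 1038, 1064 and 1075 CPM and then at 1896, 1753 and 1748 CPM (log2 fold change 0.76 ± 0.04, adjusted p = 2.05e-11). Both chains rose, and on the FPKM scale their ratio was 3.43 ± 0.0397 in controls and 3.18 ± 0.185 in induced libraries. Together the ferritins held 57.9% ± 0.363 of the FPKM of the 37 genes in controls and 65.6% ± 0.476 in induced libraries (exact permutation p = 0.1, the smallest possible). The ratio and this share use a deposited length of 866 bases for Fth1, which has 3469 exon bases in the annotation GENCODE M21. For Ftl1 34.6% of exon bases lie under another annotated gene and 44.7% of its 100-base words occur elsewhere, mainly in Ftl1-ps1 (1740 control and 2535 induced reads), so its level is uncertain.

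Me1, the cytosolic malic enzyme, makes NADPH and rose by a log2 fold change of 0.59 ± 0.06 (edgeR adjusted p = 2.74e-08). Of its 100-base words 14.6% also occur in pseudogenes with few reads. Nqo1 encodes the quinone reductase that is the usual marker gene of NRF2 activity. It was low, at 6.54, 7.08 and 6.86 CPM in controls and 7.92, 8 and 8.65 CPM in induced libraries. The groups did not overlap, but the log2 difference of 0.26 ± 0.12 did not pass the test (adjusted p = 0.0651). It was past the threshold in 3 of 16 alternatives, namely limma on log2(FPKM + 1) and log2(FPKM + 0.1) and the correction for gene length.

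**Figure D3:**
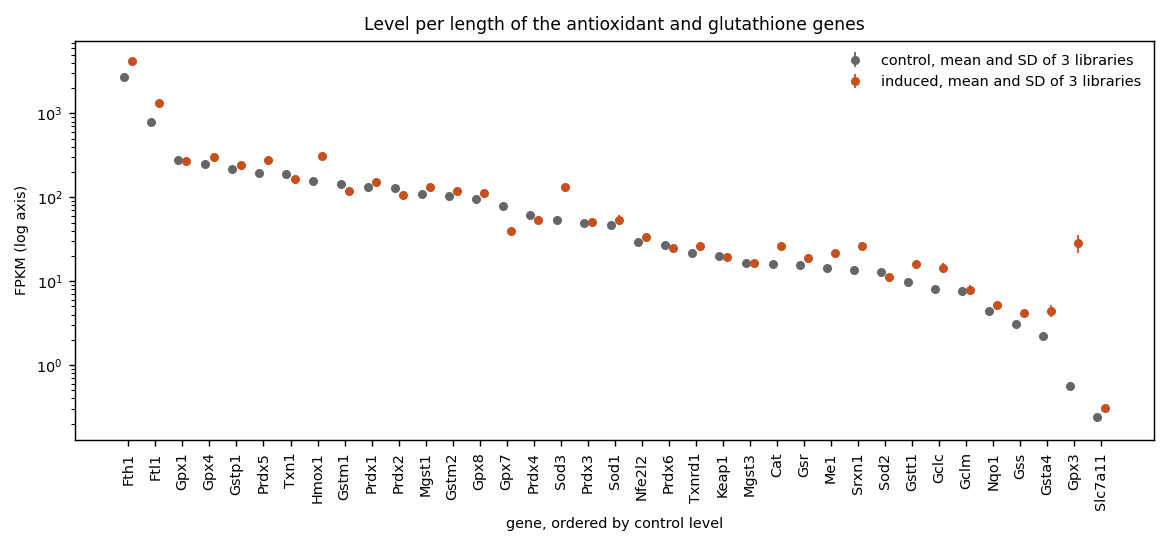
FPKM of the 37 genes in control and induced libraries on a log axis, ordered by control level, as mean and SD of 3 libraries. Fth1 leads in both groups, Slc7a11 is lowest in both, and Gpx3 makes the largest move.

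Levels per length differed widely between genes. In control libraries Fth1 led with 2683 ± 34.4 FPKM, followed by Ftl1 (783 ± 14.6), Gpx1 (280 ± 8.27), Gpx4 (252 ± 11.5) and Gstp1 (219 ± 11.5). Each of these stood apart from the next by more than the SDs between libraries, which do not cover length or shared sequence. Fth1 and Gstp1 have deposited lengths of 866 and 757 bases, against 3469 and 1548 exon bases in the annotation GENCODE M21. Ftl1, Gpx4 and Gstp1 share 44.7%, 25.2% and 25.1% of their 100-base words with other genes, so this order is uncertain. Prdx5 (197 ± 2.34) and Txn1 (188 ± 2.59) came next. Near neighbours further down could not be ranked, such as Prdx1 (131 ± 1.22) and Prdx2 (129 ± 4.07), or Mgst3 (16.6 ± 0.215) and Cat (16.2 ± 0.434). At the low end were Gsta4 (2.24 ± 0.167), Gpx3 (0.562 ± 0.0577) and Slc7a11 (0.237 ± 0.0255). In induced libraries Hmox1 (311 ± 2.68) stood at rank 3, and it did not differ from Gpx4 (303 ± 35.3) by more than the SD of the latter.

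To set these genes in their pathways, 97 further redox genes were listed by role. Of these 82 could be tested and 55 differed (67.1%), 29 higher and 26 lower, close to the 64.8% of all genes. Their median log2 fold change was 0.01. The other 15 had too few reads, among them Gpx2, Gpx5, Gpx6, Gsta1, Ftmt and Mt3 with 0 reads in all libraries.

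**Figure D4:**
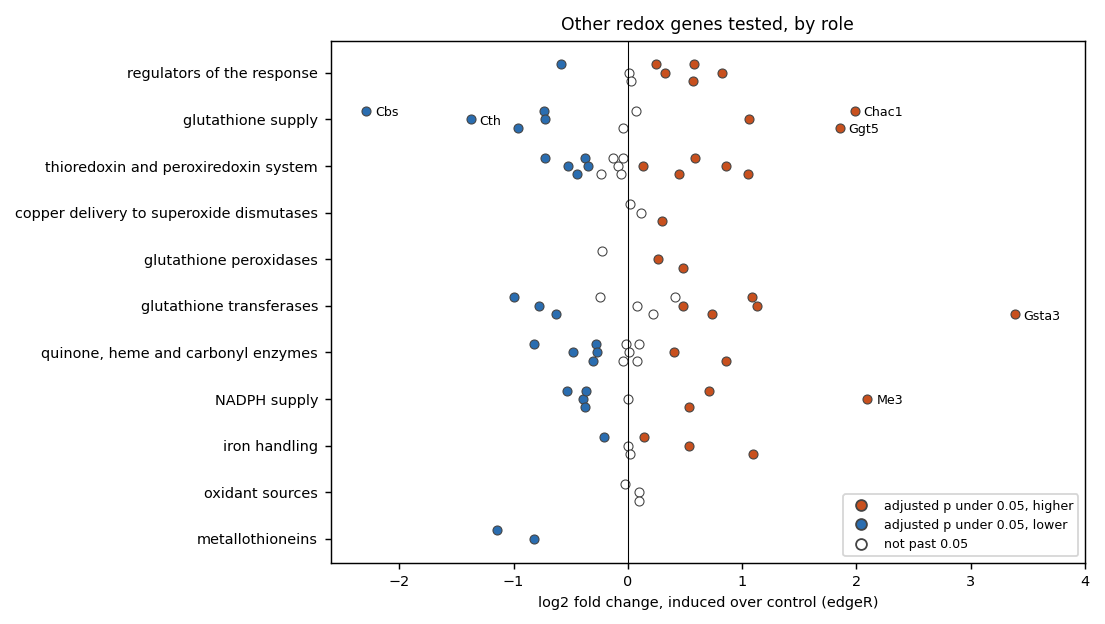
Log2 fold change of induced over control cells (edgeR) for the 82 further redox genes tested, in rows by role. Filled points passed an adjusted p of 0.05, higher or lower by colour, open points did not, and the genes farthest from 0 carry their symbols. Cbs lies farthest left and Gsta3 farthest right.

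Of 8 further regulators 5 rose and 1 fell. Nfe2l1, which encodes the NRF2 relative that drives proteasome genes, rose from 411, 393 and 398 CPM to 723, 708 and 697 CPM (log2 fold change 0.82 ± 0.04, edgeR adjusted p = 6.4e-12). Bach1, the heme-sensitive repressor that competes with NRF2 at Hmox1 and the ferritin genes, fell from 71, 62.4 and 63.1 CPM to 41.3, 47.3 and 42.7 CPM (log2 fold change -0.58 ± 0.07, adjusted p = 3.25e-07). All 3 small MAF genes, Mafg, Mafk and Maff, rose by log2 fold changes of 0.25 to 0.58, and these were named after their values were seen. Cul3 and Rbx1, which form the ligase that KEAP1 serves, did not pass the test.

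Further genes of glutathione supply numbered 3 higher and 5 lower of 10. Cbs, which makes cystathionine on the route from methionine to cysteine, fell from 5.42, 5.2 and 5.96 CPM to 1.28, 1.16 and 0.943 CPM (log2 fold change -2.29 ± 0.20, edgeR adjusted p = 1.35e-08). Chac1, which degrades glutathione, rose from 29, 31.6 and 28.2 CPM to 119, 121 and 112 CPM (log2 fold change 1.99 ± 0.06, adjusted p = 3.33e-15). The thioredoxin group held 5 higher and 5 lower of 15, led by Sesn2, a stress-induced sestrin (log2 fold change 1.05 ± 0.06, adjusted p = 1.2e-11), and Msrb3, a methionine sulfoxide reductase (0.86 ± 0.06, adjusted p = 1.93e-10). Of 3 genes of copper delivery to the dismutases only Atox1, a copper chaperone, passed the test (0.30 ± 0.08, adjusted p = 0.00346).

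Beside the glutathione peroxidases, Selenop, which encodes the selenium carrier selenoprotein P, was abundant and rose from 894, 877 and 890 CPM to 1197, 1256 and 1261 CPM (log2 fold change 0.48 ± 0.04, edgeR adjusted p = 6.72e-09). Sephs2, which makes the selenium donor for selenocysteine, rose by 0.27 ± 0.08 (adjusted p = 0.00746). Of 12 further transferases tested 5 rose and 3 fell. Gsta3, an alpha class enzyme, had the largest rise of the 97, from 3.75, 4.28 and 4.01 CPM to 45.8, 37.9 and 42.3 CPM (log2 fold change 3.39 ± 0.10, adjusted p = 3.04e-15). Gstt2 was at most at 1.17 CPM, and its log2 fold change of 1.13 ± 0.42 (adjusted p = 0.0237) was past the threshold in 10 of 15 alternatives.

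Of 12 further quinone, heme and carbonyl enzymes 2 rose and 5 fell. Ephx1, the microsomal epoxide hydrolase, rose (log2 fold change 0.86 ± 0.05, edgeR adjusted p = 4.15e-11) and Ugdh, which makes UDP-glucuronate, fell (-0.82 ± 0.05, adjusted p = 6.28e-11). Of 8 tested genes listed under NADPH supply 3 rose and 4 fell, and not all of them encode enzymes that make NADPH themselves. The mitochondrial malic enzymes Me3 (2.69 ± 0.615 to 11.6 ± 0.738 CPM, log2 fold change 2.10 ± 0.16, adjusted p = 1.09e-09) and Me2 (32.5 ± 0.79 to 53.2 ± 2.54 CPM, 0.71 ± 0.06, adjusted p = 5.21e-09) rose. The 2 dehydrogenases of the pentose phosphate pathway, G6pdx (log2 fold change -0.53, adjusted p = 7.72e-08) and Pgd (-0.37, adjusted p = 9.57e-06), fell, and were named after their values were seen.

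Of 6 iron genes tested 3 rose and 1 fell. Slc40a1, the iron exporter ferroportin, rose from 5.02, 6.42 and 5.81 CPM to 11.4, 12.8 and 12.7 CPM (edgeR adjusted p = 3.13e-07, log2 fold change 1.10 ± 0.12). Tfrc, the transferrin receptor for iron uptake, rose from 33.8 ± 1.55 to 49.1 ± 4.68 CPM (0.54 ± 0.07, adjusted p = 2.02e-06). Both metallothioneins tested fell. Mt1 was at 836, 883 and 892 CPM in controls and 491, 443 and 539 CPM in induced libraries (log2 fold change -0.83 ± 0.06, adjusted p = 4.9e-10), and Mt2 went from 9.4 ± 0.679 to 4.25 ± 0.438 CPM (-1.14 ± 0.14, adjusted p = 6.37e-07). None of 3 oxidant sources tested, Nox4, Cyba and Xdh, passed the test, with log2 differences of -0.03 to 0.10.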

How the data were processed

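The authors deposited raw read counts per gene and library and FPKM values from the same reads. Per the labels, mm10, HISAT2 2.0.5, featureCounts 1.5.0-p3 and DESeq2 1.16.1 were used; the strand setting is not given in the sources used here. FPKM served for levels between genes and for shares. It depends on the deposited gene lengths, and the SDs of levels and shares do not cover errors of length. Coordinates are those of the deposited table. The authors' fold changes, p-values and Gene Ontology tables were not used.

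Tests were run with edgeR 4.0.16 in R 4.3.3. The filter filterByExpr (minimum count 10, minimum total 15) kept 14246 genes with 99.9% of the reads, and libraries were scaled by TMM. Groups follow the labels, and all 6 libraries entered a two-sided quasi-likelihood test adjusted by Benjamini-Hochberg at 0.05. Levels are means ± SD (n = 3). The SE of a log2 fold change was derived from its F statistic. Alternatives were other scalings, DESeq2 1.42.0, a stricter filter (1 CPM and a mean count of 10) and none at all, limma 3.58.1 on log2 FPKM with 1 or 0.1 added, an adjusted p of 0.01, the replicate number as a block, leaving out each library and, chosen after seeing the data, an offset for gene length (loess, span 0.4). Replicate numbers did not pair the libraries: deviations of same-numbered libraries correlated at -0.193, -0.101 and 0.103. Within groups, library pairs differed by more than sampling noise (chi-square per degree of freedom 2.56 to 8.91). On simulated counts for the 14246 genes of this comparison, edgeR recovered 82.5% of 200 genes changed by 1 on the log2 scale, and 7.3% of its calls were false. In the data 64.8% of genes were called and the median absolute log2 change was 0.36, so these rates do not carry over to the calls above.

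The genes, the 97 further genes, the markers and their roles were chosen with earlier results of these data known. Values in each library are given for Nfe2l2 and Keap1, for up to 3 called genes with the largest absolute change in each role and for each gene not called; of the further genes, up to 2 called genes per role were named by the same measure. Overlaps of exons and shared 100-base words were computed from GENCODE M21 (GRCm38). Promoters came from RefSeq, and Gsta4, Hmox1, Gclc, Gsr, Prdx6 and Sod3 had no entry.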

Additional observations from a re-analysis of the deposited data

How the results depend on the processing

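Over 16 alternatives none of the 30 called genes changed direction. Of the 7 not called, Gclm (-0.09 without induced replicate 2, -0.01 with library totals alone), Gpx1 (0.02 without induced replicate 2), Prdx3 (-0.0027 with library totals alone) and Mgst3 (0.08 with the gene length offset) changed sign without passing the test. In all, 7 genes crossed the threshold in either direction: Nfe2l2 only at an adjusted p of 0.01, Txn1 only with the gene length offset, and Prdx6, Sod1, Gstm2, Gstp1 and Nqo1 as given with their values. The number of these genes called was 26 to 29 in place of 30, with 20 to 24 higher and 5 to 7 lower, and the number of all genes called was 7783 to 9765 in place of 9225. With a replicate block 28 of the genes were called, 22 higher and 6 lower, and 9063 of all genes. The median log2 fold change of the 37 genes with the block was 0.24, and of these genes only Prdx6 (adjusted p = 0.0747) and Gstp1 (0.0642) lost their call to it. The gene length offset also moved the log2 fold changes of Gpx8 to 0.34, Gstp1 to 0.29 and Atox1 to 0.49, and on log2(FPKM + 1), which shrinks low genes, those of Cbs, Me3 and Slc40a1 were -0.98, 0.60 and 0.54. The gene length offset moved the median to 0.28, and leaving out single libraries moved it between 0.18 (without induced replicate 3) and 0.26; the cause was not tested. Under library totals alone the median over all genes was -0.04 and that of the 37 genes 0.21. The further genes called numbered 50 to 60 in place of 55. Depth limits statements on genes of few reads, such as Slc7a11, Gsta4 and Nqo1.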

Other observations

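Several of the enzymes above are selenoproteins, so the remaining 14 genes of that family outside both lists were counted after the values had been seen. Of these 10 could be tested, and 5 were higher in induced cells, 3 lower and 2 not past the test (edgeR, adjusted p of 0.05). Across all genes tested 64.8% differed, 32.6% higher and 32.2% lower. The 5 higher were Selenof (log2 fold change 0.26), Selenok (0.45), Selenom (0.63), Selenos (0.49) and Selenot (0.36). The largest change was a fall: Selenoh went from 82.6, 82.5 and 83.4 CPM to 34.4, 30.7 and 33.4 CPM (log2 fold change -1.33 ± 0.06, adjusted p = 3.86e-13). Selenoo fell from 26.4 ± 0.107 to 16.4 ± 2.04 CPM (log2 fold change -0.69 ± 0.09, adjusted p = 1.75e-06), and Selenon had a log2 fold change of -0.12 ± 0.05 (adjusted p = 0.029). Selenow, the most abundant of them per length, had overlapping groups at 381 to 430 CPM and 318 to 405 CPM, with the lowest value in induced library 2 (log2 difference -0.10 ± 0.07, adjusted p = 0.237). Selenoi stood at 58.7 ± 1.27 and 54.2 ± 3.52 CPM (log2 difference -0.11 ± 0.06, adjusted p = 0.0929). Selenov, Dio1, Dio2 and Dio3 had 0 to 1 reads per group.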
